A study of Mus musculus with 3 samples.

Results

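The comparison described here set the blood of a metastasis-bearing mouse sample labelled Hom against that of a naive sample labelled Hom, each carried by 1 hashtag. Of 16328 cells deposited for the series, 3923 of the pair were kept: 1978 of 2862 naive cells and 1945 of 2784 metastasis-bearing cells. A cell was kept when its barcode appeared in a single deposited metadata table and at least 0.5 of its tag counts outside the lineage antibodies came from the hashtags of its own table, which are those of the Het and the Hom sample of 1 state. The authors' clusters for neutrophils, B cells, monocytes and T cells were then matched between the naive and the metastasis tables, and these 4 clusters held 1702 naive and 1743 metastasis-bearing cells.

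All mice were female, on a C57Bl/6 background and 2 to 3 months old. The study used Cx3cr1+/-, Cx3cr1-/-, CCR2+/- and CCR2-/- animals, and the labels of the blood samples give Het or Hom without naming the gene. Metastases came from E0771 cells, a mouse mammary carcinoma line, injected into the carotid artery about 2 weeks before collection; what the naive mice received in place of an injection is not given in the sources used here. Whole blood was freed of red cells, stained with 35 barcoded antibodies and a hashtag of its own, put into a pool of 8 samples and run as 1 droplet library. Het samples of naive and metastasis-bearing blood from the same pool are given beside the Hom values.

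Blood leukocytes reach a tumour in the brain from the circulation. Neutrophils store antimicrobial proteins in granules and are released early from the bone marrow under inflammatory demand. Classical monocytes carry high Ly6C and CCR2 and enter inflamed tissue, whereas patrolling monocytes carry low Ly6C and high CX3CR1. B cells and T cells recirculate between blood and lymphoid organs.

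The authors' assignment of every cell to its sample rests on the hashtag barcodes, which are therefore printed from the deposited list, 5′ to 3′, in capitals because the whole barcode is read.
M-HTO-7, Hom naive: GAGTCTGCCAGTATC
M-HTO-8, Hom metastasis-bearing: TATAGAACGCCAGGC
The median share of such tag counts that came from the hashtags of a cell's own table lay between 96.8% and 99.0% over the 4 clusters of both samples. In all, 210 cell barcodes occurred in both Hom samples and 845 in both blood tables, and such cells were left out; results that changed when they were put back are named.

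With 1 sample on each side there was no test: every difference compares 2 hashed samples of cells, not conditions, and confidence intervals cover counting error only. Levels are the authors' depth-corrected counts summed over the cells of a cluster, per 10000 such counts. A gene was measured in a cluster when its corrected counts summed to at least 100 over both samples, and was called when the ratio was at least 1.5-fold after adding a pseudocount of 1. Kept cells had a median of 4709 raw unique molecular identifiers (UMIs) in the naive and 4276 in the metastasis-bearing sample. The blood tables had been corrected separately by the authors. In the 845 barcodes present in both, 7216 genes differed between tables by a median log2 ratio of 0.01, and 0 of them reached 1.5-fold.

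The labels of the clusters held for neutrophils, B cells and monocytes, and less well for T cells. Summed levels of 8 neutrophil markers reached 1829 per 10000 in the naive neutrophil cluster, and 10 monocyte markers reached 383 in the naive monocyte cluster. In the naive T cluster, 11 T cell markers summed to 62.5, but 8 natural killer cell markers summed to 56.6. In the metastasis table natural killer cells lay in a cluster of their own with 24 Hom cells, where those markers summed to 215, and the T cluster held 5.44. The naive T cluster is therefore a mixture that its counterpart is not, and T cell results are given within antibody gates as well. Outside the 4 clusters, 238 naive cells (12.03%) and 158 metastasis-bearing cells (8.12%) fell into a shallow cluster with medians of 1108 and 1194 UMIs, which is not analysed here. Markers of epithelial tumour cells summed to at most 0.130 in the 4 clusters. The authors kept hashtag singlets, and no doublet caller was run.

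The metastasis-bearing Hom sample held larger shares of myeloid cells and smaller shares of lymphocytes than the naive one. Neutrophils made up 19.1% of naive cells (377 of 1978, exact 95% interval 17.4 to 20.9%) and 41.5% of metastasis-bearing cells (808 of 1945, 39.3 to 43.8%). Monocytes went from 9.20% (182 cells, 7.96 to 10.6%) to 24.8% (482 cells, 22.9 to 26.8%). B cells went the other way, from 40.8% (807 cells, 38.6 to 43.0%) to 16.5% (321 cells, 14.9 to 18.2%). The T cluster went from 17.0% (336 cells, 15.4 to 18.7%) to 6.79% (132 cells, 5.71 to 8.0%), but its naive part also held natural killer cells. With the metastasis-bearing natural killer cluster added, it held 336 of 1978 and 156 of 1945 cells. The authors' CD3-based gates held 207 and 103 cells of the T cluster. No interval overlapped between the samples in any of the 4 clusters. Shares sum to 100%, so more myeloid cells and fewer lymphocytes cannot be told apart.

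In Het blood the same pair of states differed otherwise. Neutrophils made up 46.3% of naive and 38.6% of metastasis-bearing Het cells, B cells 25.4% and 27.6%, monocytes 10.2% and 15.5%, and the T cluster 8.33% and 6.61%. The Hom naive sample had the lowest neutrophil share and the highest B cell share of the 4 blood samples. Only monocytes, upward, and the T cluster, downward, moved in 1 direction in both genotypes. The T clusters are not like for like, since natural killer cells of metastasis-bearing Het blood lay in another cluster (35 cells, 1.69%). Of the Het T cluster, 25.9% of naive and 2.19% of metastasis-bearing cells had none of the authors' T cell gates. A fall of Het T cells themselves is therefore not shown.

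**Figure D1:**
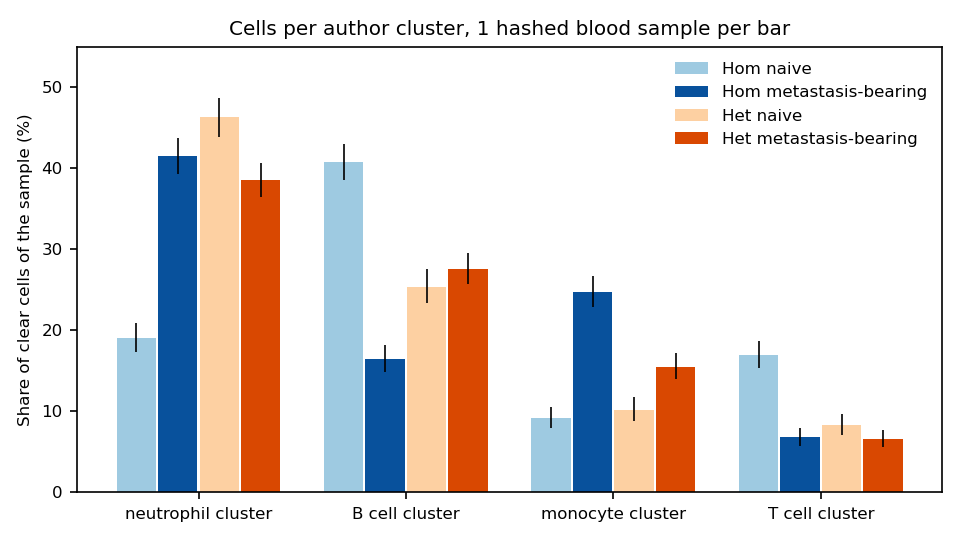
Share of kept cells (%) in the neutrophil, B cell, monocyte and T cell clusters in Hom naive, Hom metastasis-bearing, Het naive and Het metastasis-bearing blood; each bar is 1 hashed sample and bars on top are exact 95% binomial intervals. The Hom naive sample stands apart with 19.1% neutrophils and 40.8% B cells.

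More genes passed 1.5-fold in the myeloid clusters than in the lymphocyte clusters. In neutrophils 280 of 4001 measured genes were higher in the metastasis-bearing sample (7%) and 265 lower (6.62%). In monocytes 182 of 3987 were higher (4.56%) and 420 lower (10.5%). In B cells 99 of 5669 were higher (1.75%) and 165 lower (2.91%), and in T cells 86 of 3403 were higher (2.53%) and 149 lower (4.38%). Cell numbers differ between clusters and set how many genes are measured and how noisy their ratios are. The median log2 ratio over all measured genes was −0.02 in neutrophils, −0.05 in B cells, −0.08 in monocytes and −0.01 in T cells.

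Het blood, another pair of samples in the same library and the same 2 tables, showed part of these shifts. Of the 278 genes higher in Hom neutrophils that were measured in Het, 78 (28.1%) were past 1.5-fold in the same direction, against 13.3% of all genes measured there, and 17 were past it the other way. For the 300 genes lower in Hom monocytes the share was 36.0%, against 10%. For those higher in Hom B cells it was 26.2% of 84 genes, against 1.97%. For those lower in Hom neutrophils it was 24.3% of 255 genes, against 5.32%, and 21 were past 1.5-fold the other way. For those lower in B cells it was 14.2% of 127, against 2.55%, and for those higher in monocytes 29.4% of 163, against 3.36%. In the ungated T cluster it was 34.3% of 35 higher genes, against 1.51%, and 42.3% of 52 lower ones, against 4.41%. In both genotypes the naive T cluster held natural killer cells that the metastasis-bearing T cluster mostly lacked. In Het it had the natural killer gene Gzma at 13.5 and 0.0880 per 10000. The overlap of lower T genes was thus partly set by the clustering and says little about T cells themselves.

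**Figure D2:**
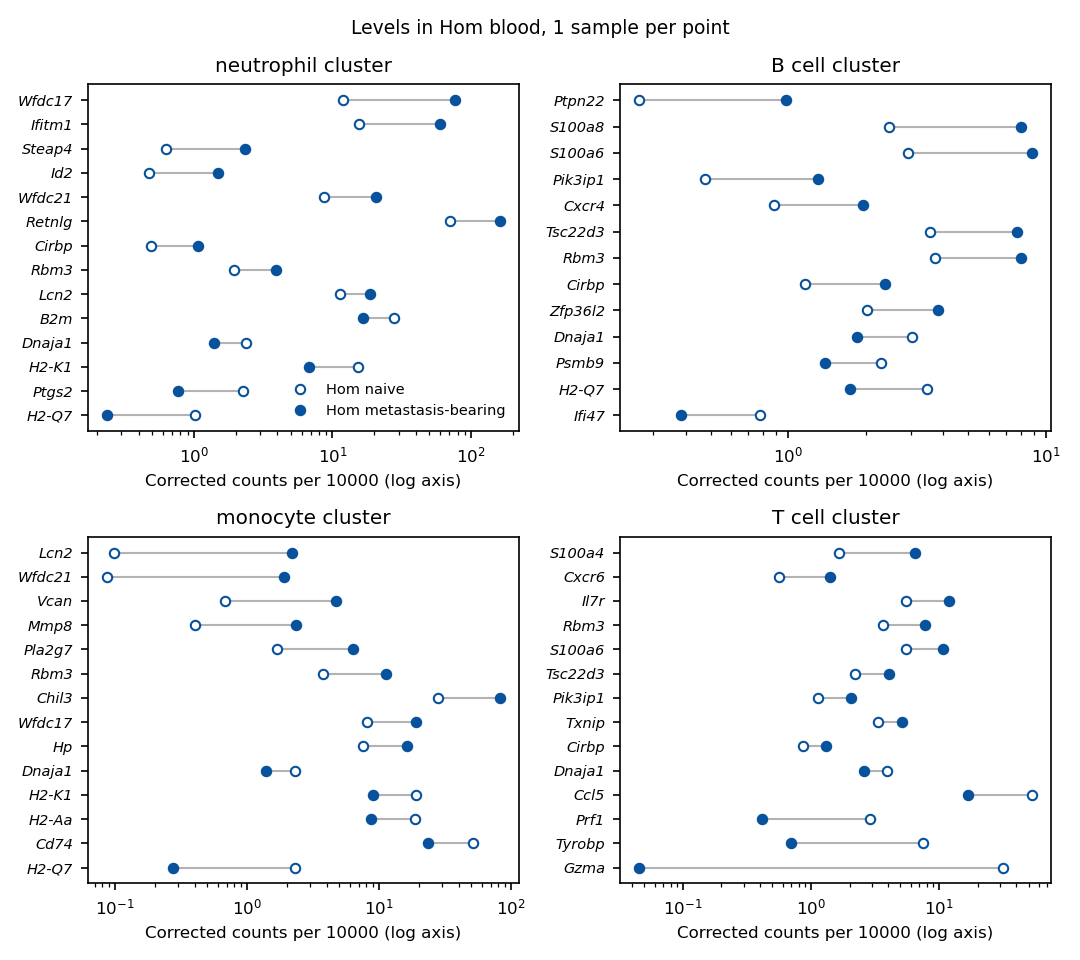
Level (corrected counts per 10000, log axis) of genes described in the text in Hom naive (open) and Hom metastasis-bearing (filled) blood, 1 panel per cluster and 1 sample per point. Wfdc17 in neutrophils went from 11.95 to 76.8 and Vcan in monocytes from 0.677 to 4.68, whereas H2-Q7 was lower in the metastasis-bearing sample in the neutrophil, monocyte and B cell panels.

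Neutrophils of the metastasis-bearing sample carried more transcripts of many acute-phase and inflammatory genes. Of 20 such genes listed, 18 were measured: 10 were higher past 1.5-fold (7% of all genes were), 1 was lower, and the list median was a log2 ratio of 0.69. In Het neutrophils 2 of 18 were higher and 1 lower, against 13.3% and 5.32% of all genes measured there. The Het list median was −0.05, against 0.15 over those genes.

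Wfdc17, a small secreted whey acidic protein family member, stood at 11.95 per 10000 in the naive and 76.8 in the metastasis-bearing sample, 6.42-fold. It was found in 63.9% of naive neutrophils (58.9 to 68.8%) and 98.3% of metastasis-bearing ones (97.1 to 99.0%). With each cell thinned to 1000 corrected counts, which left out no cell, the shares were 43.8% and 91.3%. In B cells, which should lack the gene, it was found in 19.2% and 24.3% of cells, B cells having medians of 4865 and 4260 UMIs and neutrophils 2827 and 3285. Het neutrophils stood between the Hom samples, at 36.1 naive and 42.7 metastasis-bearing.

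Ifitm1, an interferon-inducible membrane protein, went from 15.6 to 59.4 per 10000 (3.8-fold) and from 69.2% to 95.4% of neutrophils. Het neutrophils had 36.5 and 33.8, again between the Hom values. The related Ifitm3, at 13.5 and 15.1, was not called. Wfdc21 went from 8.67 to 20.7, and Lcn2, the siderophore-binding lipocalin, from 11.3 to 18.6. In Het, Wfdc21 was 1.26-fold and Lcn2 1.16-fold higher, short of the threshold.

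Steap4, a metalloreductase induced by inflammatory cytokines, went from 0.630 to 2.32 per 10000 and from 12.7% to 37.5% of neutrophils. In Het it went the other way, from 2.92 to 0.564. Igfbp6, which binds insulin-like growth factors, went from 0.259 to 1.98, and from 6.37% to 37.3% of cells. Het neutrophils had Igfbp6 at 1.35 and 1.12, which was not called. The chemokine Cxcl2 (0.531 to 1.17), the lipopolysaccharide co-receptor Cd14 (0.512 to 0.925), the C-type lectin Clec4e (2.78 to 4.62) and the decoy interleukin-1 receptor Il1r2 (1.93 to 3.02) were also higher in Hom. Il1b itself went from 38.7 to 51.9, 1.34-fold, and was not called. Ptgs2, the inducible prostaglandin synthase, was the listed gene that was lower, at 2.28 and 0.768. In Het it went the other way, from 0.747 to 1.09, short of the threshold.

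Of 16 granule protein genes measured, 7 were higher and 0 lower in Hom neutrophils, with a median of 0.50, and 5 were higher in Het. Of all genes, 7% were higher in Hom and 13.3% in Het neutrophils. Retnlg, a resistin-like protein, went from 70.2 to 161 per 10000 (2.29-fold) and from 82.5 to 169 in Het. Cd177 went from 0.352 to 0.715 and Anxa1, a protein that limits inflammation, from 7.01 to 10.8. The gelatinase Mmp9 (19.1 and 14.7), the collagenase Mmp8 (3.40 and 3.93) and haptoglobin Hp (20.7 and 30.1) were not called. The calprotectin subunits, the most abundant transcripts, were level: S100a8 stood at 773 and 739, and S100a9 at 916 and 931.

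Genes of less mature neutrophils were higher in a small number of cells. Camp, the cathelicidin precursor, went from 0.0741 to 3.07 per 10000, but was found in 9 of 377 naive and 39 of 808 metastasis-bearing neutrophils, and 5 cells held 89.8% of the metastasis-bearing counts. Ltf, lactoferrin, was found in 1 naive and 20 metastasis-bearing cells, and Ngp, neutrophilic granule protein, in 16 and 60 cells. The stefin genes Stfa1 (0.531 to 5.75), Stfa2 and BC100530 were found in more cells, up to 104 for Stfa1, against 12 in the naive sample. These are near-identical neighbours, so the split of reads among them is uncertain. In Het neutrophils Camp (0.112 to 2.03), Ngp (0.342 to 2.57) and Stfa1 (1.24 to 4.08) were higher as well.

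Transcripts of antigen presentation and of interferon response were lower in neutrophils. Of 12 class I presentation genes measured, 5 were lower past 1.5-fold and 0 higher, with a list median of −0.51 (6.62% of all genes were lower). H2-K1 went from 15.3 to 6.78 per 10000, the class I light chain B2m from 27.8 to 16.7, and the non-classical H2-Q7 from 1.01 to 0.237. In Het these 3 stood at 7.63 and 6.75, 18.8 and 16.4, and 0.336 and 0.243: the Hom naive sample had the highest level of each.

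Of 24 type I interferon genes measured, 8 were lower and 0 higher in Hom neutrophils, with a median of −0.30. Ifit3 went from 1.15 to 0.546, Ifi204, a DNA sensor, from 1.08 to 0.534, the ubiquitin-like Isg15 from 2.71 to 1.71 and the factor Irf7 from 1.19 to 0.750. Isg15 and Irf7 were no longer past 1.5-fold with all deposited cells, at log2 ratios of −0.58 and −0.50. The interferon gamma-responsive GTPases Igtp (0.525 to 0.234), Irgm1 (0.636 to 0.329) and Gbp2 (0.704 to 0.394) were lower too. In Het neutrophils 23 of 25 interferon genes were lower, with a median of −1.10. Of all genes, 6.62% were lower in Hom and 5.32% in Het neutrophils. The checkpoint ligand Cd274 was lower in both, from 0.463 to 0.255 in Hom and from 0.236 to 0.132 in Het.

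B cell transcripts moved with these neutrophil results. In neutrophils the B cell receptor component Cd79a went from 1.55 to 0.557 per 10000 and Ms4a1 from 0.525 to 0.136, while B cells made up 40.8% and 16.5% of the samples. The class II genes H2-Aa (2.02 to 1.09) and Cd74 (5.44 to 2.94) did the same. The part of RNA from other cells in the class I and interferon results was not tested. B cells themselves had H2-K1 at 18.9 and 13.8.

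Monocytes of the metastasis-bearing sample had lower levels of patrolling and antigen presentation genes, and some classical monocyte genes were higher. Of 14 classical monocyte genes measured, 5 were higher past 1.5-fold (4.56% of all genes were) and 1 lower, with a median of 0.49. By the authors' antibody gates the mix of monocytes differed between the samples. The naive and metastasis tables hold these gates under different column names and labels. Whether the limits of the gates were alike is not given in the sources used here, and the part of gating in the differences was not tested. The authors' antibody gate for high Ly6C held 101 of 182 naive cells (55.5%, 48.0 to 62.8%) and 387 of 482 metastasis-bearing cells (80.3%, 76.5 to 83.8%). The gate for low Ly6C held 39 (21.4%) and 54 (11.2%). A further 35 naive (19.2%) and 20 metastasis-bearing cells (4.15%) had none of the authors' myeloid gates. In Het, monocytes without such a gate made up 42.9% of the naive and 79.5% of the metastasis-bearing cluster, so Het values are given for the whole cluster alone. Values within the gates are given for the genes and lists that the description turns on.

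Within the Ly6C-high gate 3002 genes were measured, of which 192 were higher (6.4%) and 200 lower (6.66%). Of the 157 genes higher in the whole cluster that were measured there, 111 were also higher within the gate. Of 188 lower genes, 116 were. Of 13 classical monocyte genes measured in the gate 3 were higher and 0 lower, with a median of 0.23, and their summed level went from 619 to 573 per 10000.

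Lcn2 went from 0.0983 to 2.19 per 10000 in the cluster and from 0.0781 to 2.42 within the Ly6C-high gate. It was found in 6 of 182 naive and 145 of 482 metastasis-bearing monocytes. Wfdc21 was counted in 2 naive cells and 112 metastasis-bearing ones; within the gate it stood at 0 and 1.98. Versican, Vcan, an extracellular matrix proteoglycan of classical monocytes, went from 0.677 to 4.68 (6.81-fold) and from 1.07 to 5.54 within the gate, and was found in 20.9% and 61.6% of the cluster. Mmp8 went from 0.404 to 2.36, the serine protease Prtn3 from 0.207 to 1.23, and the phospholipase Pla2g7 from 1.68 to 6.33. Within the gate Mmp8, Prtn3 and Pla2g7 were 4.18-fold, 3.88-fold and 4.77-fold higher. Acute-phase Saa3 was higher in the cluster (0.0764 to 0.557), but with all deposited cells its log2 ratio was 0.38.

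Chil3, a chitinase-like protein, went from 28.0 to 81.6 per 10000 in the cluster and from 46.7 to 96.4 within the gate. Wfdc17 went from 8.04 to 19.0, haptoglobin Hp from 7.49 to 16.3 and the chemokine receptor Ccr1 from 0.906 to 2.29. Within the Ly6C-high gate Wfdc17, Hp and Ccr1 were 1.86-fold, 1.66-fold and 2.99-fold higher. Fibronectin Fn1 (10.4 to 19.5) and coagulation factor F13a1 (5.43 to 8.59) were called in the cluster, but within the Ly6C-high gate their log2 ratios were 0.39 and 0.25. Ly6c2 itself went from 14.0 to 12.5, and from 21.0 to 14.8 within the gate. In Het monocytes Vcan (1.52 to 5.76), Pla2g7 (2.45 to 6.71), Chil3 (17.7 to 111) and Fn1 (8.90 to 21.4) were higher too, whereas Wfdc21 (0.437 to 0.556) and Prtn3 (0.482 to 0.677) were not called.

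**Figure D3:**
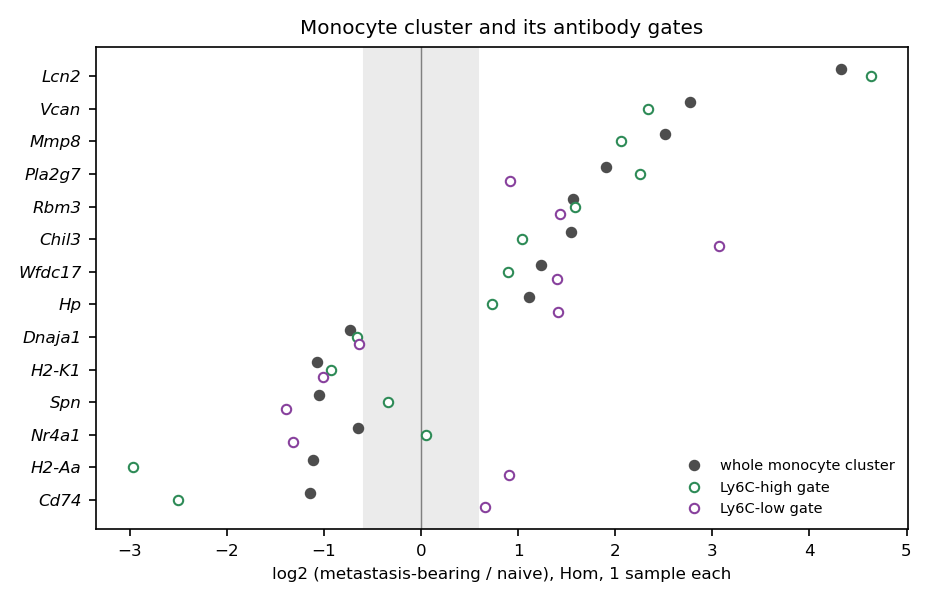
Log2 ratio, metastasis-bearing over naive Hom blood, of monocyte genes in the whole cluster (filled), the Ly6C-high gate (green, open) and the Ly6C-low gate (purple, open); the grey band marks ratios under 1.5-fold, each point compares 1 sample with 1 sample, and a gene not measured in a gate has no point there. Vcan, Mmp8 and Rbm3 were higher with and without gating, while H2-Aa and Cd74 were lower in the Ly6C-high and higher in the Ly6C-low gate.

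Patrolling genes were lower in the cluster: 9 of 16 measured were past 1.5-fold and 0 higher, with a median of −0.61 (10.5% of all genes were lower). Within the Ly6C-high gate 0 of 11 were lower and 1 was higher. Within the Ly6C-low gate 9 of 12 were lower, with a median of −0.83, against 8.32% of the 625 genes measured there. In those 39 and 54 cells the sialophorin Spn went from 4.62 to 1.74 per 10000, the nuclear receptor Nr4a1, which patrolling monocytes require, from 4.57 to 1.81, and the tetraspanin Cd9 from 3.95 to 0.870. Ccr2 went from 5.29 to 9.53, Fn1 from 1.64 to 13.1 and Chil3 from 0.719 to 6.43 in the same gate. Het patrolling genes were lower in the whole cluster too, 8 of 16 with a median of −0.57, against 10% of all genes.

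Class II antigen presentation genes differed in opposite directions in the gates. In the whole cluster 7 of 7 genes measured were lower, with a median of −1.11 (10.5% of all genes were lower). H2-Aa went from 18.9 to 8.71 per 10000, the invariant chain Cd74 from 51.8 to 23.5 and the class II transactivator Ciita from 0.972 to 0.255. H2-Aa was found in 44.5% of naive and 15.1% of metastasis-bearing cells. Within the Ly6C-high gate H2-Aa went from 8.62 to 1.10 and Cd74 from 25.0 to 4.42. There 6 of 6 class II genes were lower, against 6.66% of all genes. Within the Ly6C-low gate 5 of 6 were higher (8.48% of all genes measured there were), with H2-Eb1 at 21.7 and 47.5. Cd209a, a lectin of monocyte-derived dendritic cells, went from 2.67 to 0.464 in the cluster and was found in 37 and 23 cells. In Het, Cd209a went the other way, from 0.504 to 0.741, short of the threshold. Het monocytes differed otherwise: H2-Ab1 went from 5.32 to 8.54, and 3 of 6 genes were higher, against 3.36% of all genes.

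Class I and interferon genes were lower in monocytes as in neutrophils. Of all genes measured in monocytes 10.5% were lower and 4.56% higher. Of 13 class I genes 6 were lower and 0 higher, with H2-K1 at 18.9 and 8.98 and H2-Q7 at 2.29 and 0.277. Of 22 type I interferon genes 8 were lower and 0 higher, with a median of −0.43. Ifit3 went from 1.28 to 0.370, Isg15 from 2.26 to 0.949, and the interferon gamma targets Gbp2 and Gbp3 from 0.983 to 0.162 and from 0.841 to 0.213. Within the Ly6C-high gate Ifit3 (1.72 to 0.330), Isg15 (2.56 to 0.946) and H2-K1 (15.5 to 8.19) were lower as well. Het monocytes had 10 of 19 interferon genes lower, against 10% of all genes, with a median of −0.59. B cell transcripts were also lower in this cluster, with Cd79a at 1.39 and 0.408 and Ms4a1 at 0.917 and 0.204. Their part in these results was not tested.

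Some monocyte results rested on few cells or changed with the cells included. Retnla, a resistin-like protein of alternatively activated macrophages, went from 1.15 to 10.4 per 10000, but was found in 5 and 18 cells, and 5 cells held 79.6% of the metastasis-bearing counts. In Het it went from 4.46 to 0.0703. The complement genes C1qa (0.131 to 0.689) and C1qb (0.284 to 1.03) were called, with 78.4% of the metastasis-bearing C1qa counts in 5 cells. S100a8 in monocytes (4.18 to 10.4) was lower rather than higher with all deposited cells, at a log2 ratio of −0.20.

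Most B cell identity transcripts measured were not called in B cells. Cd79a stood at 38.8 and 37.1 per 10000, Cd74 at 170 and 171, Ms4a1 at 14.0 and 12.01 and the transcription factor Ebf1 at 15.8 and 16.6. Of 23 B cell identity and activation genes measured, 2 were higher and 1 lower, against 1.75% and 2.91% of all genes. The low-affinity immunoglobulin E receptor Fcer2a was the lower one, at 3.62 and 2.40, just past the threshold, and was under it in 5 alternatives. Bhlhe41, a factor of innate-like B cells, went from 0.193 to 0.502, found in 50 of 807 and 45 of 321 cells. In Het it was 0.235 and 0.205.

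Of the glucocorticoid-induced list, 3 of 6 measured genes were higher and 0 lower in Hom B cells (1.75% of all genes were higher), with a median of 0.85. In Het B cells 4 of 6 were higher, against 1.97% of all genes. Tsc22d3, a glucocorticoid-induced leucine zipper protein, went from 3.54 to 7.74 per 10000. Pik3ip1, an inhibitor of phosphoinositide 3-kinase, went from 0.475 to 1.30, Ddit4, an inhibitor of the mTOR pathway, from 0.167 to 0.406, and the chemokine receptor Cxcr4 from 0.879 to 1.95. Het B cells went the same way, with Tsc22d3 at 3.79 and 5.89, Pik3ip1 at 0.461 and 1.13, and Cxcr4 at 0.826 and 1.25. The homing genes Ccr7 (2.25 and 1.83) and S1pr1 (2.03 and 1.97) were not called.

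Ptpn22, a phosphatase that restrains antigen receptor signalling, went from 0.265 to 0.983 per 10000 in B cells, 3.71-fold, and from 87 of 807 cells (10.8%) to 106 of 321 (33.0%). The thinned shares were 2.60% and 8.41%. It stood at 0.288 and 1.04 in Het B cells. Ptpn22 and the RNA-binding Zfp36l2 (2.02 to 3.82) led the genes that were higher in B cells only.

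Calprotectin transcripts were higher in B cells, where they are not made in quantity. S100a8 went from 2.45 to 8.02 per 10000 and S100a9 from 4.44 to 10.6. The share of B cells with S100a8 went from 61.7% to 57.0%, and 5 cells held 69.3% of the metastasis-bearing counts against 10.2% of the naive ones. Neutrophils, where S100a8 stood at 773 and 739, made up 19.1% and 41.5% of the samples; the part of their RNA in these values was not tested. S100a6 (2.92 to 8.79), which lymphocytes express, was spread over more cells, with 21.1% of its counts in 5 cells.

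Class I and interferon genes were lower in B cells to a smaller extent. H2-Q7 went from 3.46 to 1.74 and its near-identical neighbour H2-Q6 from 1.86 to 1.05, so that reads may be split between them with error. The immunoproteasome subunit Psmb9 went from 2.29 to 1.39, and the GTPase Ifi47 from 0.779 to 0.385. Of 14 class I genes 3 were lower, and of 15 type I interferon genes 3 were lower and 1 higher, against 2.91% lower and 1.75% higher of all genes. The higher one was Ifit3 (0.180 to 0.440), with 54.7% of its metastasis-bearing counts in 5 cells. Jchain, the joining chain of secreted immunoglobulin, went from 0.743 to 0.358, but was found in 9 and 3 cells.

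T cells were described within the authors' CD3-based gates, which held 207 naive and 103 metastasis-bearing cells of the cluster. Beside the CD4 and CD8 gates these took in 7 naive cells labelled CD3 positive and 9 metastasis-bearing cells labelled negative for CD4 and CD8. In the ungated cluster the largest differences were those of natural killer cells: Gzma went from 31.4 per 10000 to 0.0457, Ncr1 from 2.21 to 0, Prf1 from 2.91 to 0.411 and Tyrobp from 7.46 to 0.701. With the metastasis-bearing natural killer cluster added to the T cluster, Gzma stood at 31.4 and 18.9, Ncr1 at 2.21 and 1.45 and Tyrobp at 7.46 and 5.08. Within the gates Tyrobp stood at 0.711 and 0.720. Of the 149 genes called lower in the ungated cluster, 44 were measured within the gates and 11 of them were lower there; of 86 called higher, 43 were measured and 25 were higher.

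Within the CD3 gates 2130 genes were measured, of which 64 were higher (3%) and 22 lower (1.03%). Il7r, the interleukin-7 receptor chain that maintains resting T cells, went from 7.01 to 11.97 per 10000 within the CD3 gates. Its log2 difference was 0.82 in the CD4 gate, and it went from 7.22 to 11.2 in the CD8 gate. S100a4 went from 1.14 to 3.91 and S100a6 from 2.32 to 6.91. In the ungated cluster S100a4 was found in 16.4% and 25.8% of cells, and S100a6 in 35.1% and 32.6%. Tsc22d3 (2.55 to 4.58) and Pik3ip1 (1.44 to 2.22) were higher, as in B cells. Txnip (3.52 to 5.43), an inhibitor of glucose uptake, was higher too, but was not among the genes called in B cells. Het T cells, ungated, had Il7r at 6.60 and 12.1, Tsc22d3 at 2.20 and 3.8 and Pik3ip1 at 1.16 and 2.52. S100a4 stood at only 2.43 and 3.17 there, and S100a6 at 3.58 and 3.62.

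The genes of naive T cell circulation were level. Of 12 measured within the gates, 1 was higher (Il7r) and 0 lower. Ccr7 stood at 4.12 and 3.54, Lef1 at 7.18 and 5.96 and Klf2 at 13.1 and 10.9. The chemokine Ccl5, lower in the ungated cluster together with the natural killer genes, stood at 4.28 and 5.51 within the CD3 gates together, but was lower in the CD8 gate, at 6.52 and 2.11. Class I genes were level within the gates too, with 0 of 13 past 1.5-fold, H2-K1 at 19.4 and 17.1 and H2-Q7 at 6.11 and 5.02. Of 7 interferon genes 0 were past 1.5-fold.

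**Figure D4:**
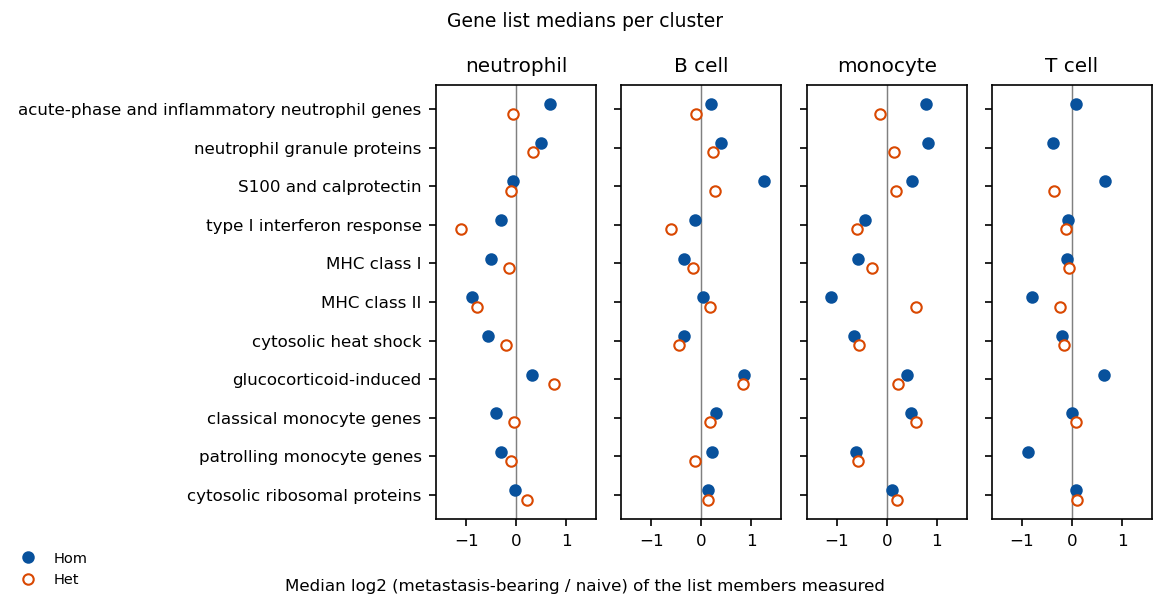
Median log2 ratio, metastasis-bearing over naive, of the measured members of 11 gene lists in each cluster, Hom (filled) and Het (open); a list with under 4 measured members in a cluster has no point, and the T cell panel is the ungated cluster. The acute-phase list is at 0.69 in Hom and −0.05 in Het neutrophils, and class II is at −1.11 in Hom monocytes and above 0 in Het.

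Few genes moved the same way in every cluster. Of 2134 genes measured in all 4 clusters, 2 were higher in all (0.0937%) and 4 lower in all (0.187%); a further 5 were higher (0.234%) and 12 lower (0.562%) in exactly 3. The 2 higher genes were Rbm3 and Ifitm1, and the 4 lower were Dnaja1 and the haemoglobin genes Hba-a1, Hba-a2 and Hbb-bs.

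Rbm3, a cold-inducible RNA-binding protein that promotes translation, was the only higher gene with a sizeable level in each cluster. It went from 1.96 to 3.89 per 10000 in neutrophils, 3.70 to 7.97 in B cells, 3.79 to 11.2 in monocytes and 3.66 to 7.73 in T cells. In Het it went from 1.38 to 4.28, 3.63 to 8.78, 3.28 to 9.76 and 3.66 to 7.93. In all 8 cluster and genotype pairs the metastasis-bearing value was at least 1.98-fold the naive one. It was found in 76.3% and 95.3% of Hom B cells, with thinned shares of 29.2% and 50.2%. It was past 1.5-fold in every cluster under all alternatives but the 2-fold threshold. In barcodes shared by both tables the metastasis table had slightly less Rbm3, at a log2 ratio of −0.09.

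Its relative Cirbp, another cold-inducible RNA-binding protein, went from 0.488 to 1.07 in neutrophils, 1.16 to 2.37 in B cells and 0.870 to 1.31 in T cells, and from 0.317 to 0.387 in monocytes, which was not called. In Het it was called in all 4, with 0.328 and 1.48 in neutrophils and 0.381 and 0.862 in monocytes.

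Dnaja1, a co-chaperone of the Hsp70 system, was lower in the 4 clusters, only just past the threshold in T cells. It went from 2.36 to 1.41 per 10000 in neutrophils, 3.01 to 1.84 in B cells, 2.30 to 1.39 in monocytes and 3.91 to 2.58 in T cells, which are 1.51-fold to 1.68-fold differences. Het values were 1.95 and 1.17, 2.78 and 1.55, 2.40 and 1.07, and 3.44 and 2.20. Within the CD3 gates it stood at 3.61 and 2.43, a log2 ratio of −0.56, and with all deposited cells it was under 1.5-fold in the B cell, monocyte and T cell clusters. In T cells it was also short of 1.5-fold with a pseudocount of 10, with cells thinned to 1000 counts and when centred on the median, at log2 ratios of −0.54, −0.54 and −0.58. Other heat shock genes were lower in some clusters, such as Hsp90aa1 in monocytes (2.11 to 0.881) and the mitochondrial co-chaperonin Hspe1 in neutrophils (0.457 to 0.151). Of the cytosolic heat shock list 3 of 6 measured genes were lower in neutrophils, 2 of 8 in B cells, 4 of 6 in monocytes and 2 of 8 in the ungated T cluster, and none was higher. Of all genes 6.62%, 2.91%, 10.5% and 4.38% were lower in these clusters. Within the CD3 gates 0 of 6 were lower.

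**Figure D5:**
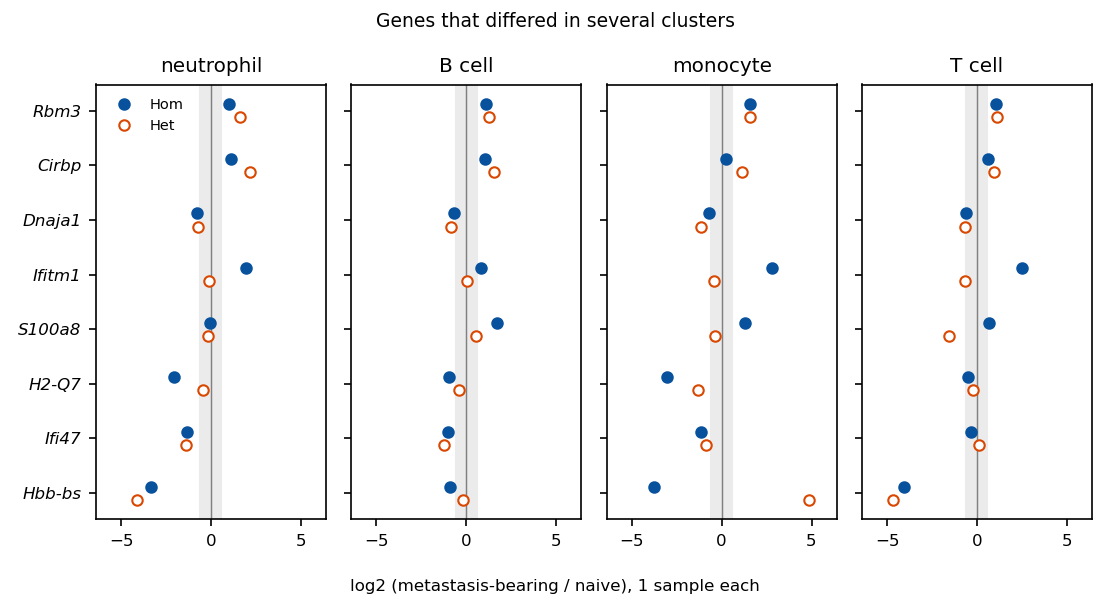
Log2 ratio, metastasis-bearing over naive, of 8 genes called in several clusters, 1 panel per cluster, Hom (filled) and Het (open); the grey band marks ratios under 1.5-fold and each point compares 1 sample with 1 sample. Rbm3 lies right and Dnaja1 left of 0 in all panels in both genotypes, whereas Ifitm1 is high in Hom alone and Hbb-bs in monocytes lies at −3.77 in Hom and 4.86 in Het.

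Because Dnaja1 and the interferon genes were lower in several cell types, the 250 bases before their start sites were read from RefSeq (GRCm38.p6) and searched on both strands. The heat shock motif was GAANNTTC or TTCNNGAA, which 12.8% of 32851 promoters of that length hold. The interferon-stimulated motif was GAAA, any 2 bases and GAAA again, or its reverse complement, held by 2.98%, and the gamma-activated motif TTCNNNGAA, held by 7.02%. Capitals mark matches to the motif named for each gene, and a match is a description of the letters.
Dnaja1, first of 3 annotated starts, heat shock motif, chr4:40722218-40722467, plus strand: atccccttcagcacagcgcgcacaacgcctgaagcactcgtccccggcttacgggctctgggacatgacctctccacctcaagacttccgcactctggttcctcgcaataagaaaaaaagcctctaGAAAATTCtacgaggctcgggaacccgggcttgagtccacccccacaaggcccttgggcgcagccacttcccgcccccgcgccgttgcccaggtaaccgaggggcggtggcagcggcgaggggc
Isg15, interferon-stimulated motif, chr4:156200819-156201068, minus strand: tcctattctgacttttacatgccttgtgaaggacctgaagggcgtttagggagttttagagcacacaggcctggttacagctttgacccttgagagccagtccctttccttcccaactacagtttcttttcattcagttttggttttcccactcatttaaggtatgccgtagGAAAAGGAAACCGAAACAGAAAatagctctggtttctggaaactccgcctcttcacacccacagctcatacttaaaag
The first Dnaja1 window held 1 heat shock match, 124 bases before the start, and the windows of its other starts held 0. Isg15 was lower in neutrophils, monocytes and B cells; in B cells it stood at 0.247 and 0.103 per 10000, and with cells thinned to 1000 counts its log2 ratio there was 0.0081. Its window held 3 overlapping interferon-stimulated matches, whose first bases lay 78, 72 and 66 bases before the start. The window also held 1 heat shock match, not in capitals. The Ifi47 window held 0 of the 3 motifs, as did both Cirbp windows.

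Ifitm1 and the haemoglobin genes also met the rule in all 4 clusters. Ifitm1 rested on few cells outside neutrophils, and haemoglobin ratios changed sign in neutrophils and B cells with the cells included. Outside neutrophils Ifitm1 stood at no more than 1.22 per 10000, at 0.283 and 0.502 in B cells, 0.131 and 0.979 in monocytes and 0.209 and 1.22 in T cells. In the metastasis-bearing sample 5 cells held 92.5% of its counts in T cells, 50.7% in B cells and 49.6% in monocytes. In Het it was not higher past 1.5-fold in any cluster.

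Hbb-bs went from 9.26 to 0.907 per 10000 in neutrophils, 1.51 to 0.798 in B cells, 20.9 to 1.52 in monocytes and 9.66 to 0.564 in T cells. In naive monocytes 98.4% of its counts lay in 5 cells, and in naive T cells 94.9%. Without the cells above the 95th percentile of raw UMIs of their cluster and sample, the log2 ratio in neutrophils was 0.10, and with all deposited cells the ratio in B cells was 2.99. Het monocytes went from 0.370 to 11.1.

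Genes that moved in 3 clusters included H2-Q7, Irf1 and Ifi47, all lower in neutrophils, B cells and monocytes and short of the threshold in T cells. Irf1, a transcription factor of the interferon response, went from 3.18 to 1.75 per 10000 in neutrophils, 0.935 to 0.578 in B cells, 1.30 to 0.417 in monocytes and 0.997 to 0.731 in T cells. Ifi47 went from 0.358 to 0.139, 0.779 to 0.385, 1.94 to 0.864 and 2.35 to 1.83. In Het, Ifi47 was lower past 1.5-fold in the same 3 clusters, H2-Q7 and Irf1 in monocytes only. The B cell and class II genes Cd79a, Ly6d, Cd74, H2-Aa, H2-Eb1 and Igkc were lower in neutrophils, monocytes and the ungated T cluster. They were not called in B cells, where Cd74 stood at 170 and 171. Within the CD3 gates the 1 class II gene measured was higher, at 0.757 and 3.08 per 10000.

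Cell-type-only shifts were those past 1.5-fold in 1 cluster and within 1.2-fold in the other 3. Neutrophils had 27 higher (1.27% of 2134) and 20 lower (0.937%), monocytes 11 (0.515%) and 42 (1.97%), B cells 5 (0.234%) and 4 (0.187%), and T cells 3 (0.141%) and 12 (0.562%). In neutrophils they included the mitochondrial superoxide dismutase Sod2 (0.142 to 0.335), the calcium-binding Sri (1.56 to 3.11) and, downward, the lysosomal Psap (7.18 to 4.51) and S100a10 (0.673 to 0.341). In monocytes they included the polyamine enzyme Sat1 (8.36 to 13.6), the lysosomal thioesterase Ppt1 (1.15 to 2.04) and, downward, the glucocorticoid receptor Nr3c1 (0.819 to 0.362). Within the Ly6C-high gate Sat1 was 1.94-fold and Ppt1 1.9-fold higher, and Nr3c1 was under the minimum. In Het, Nr3c1 (1.11 to 0.562) and S100a10 (0.595 to 0.366) were lower past 1.5-fold as well. The Het log2 ratios of Sod2 (0.46), Sri (−0.32), Psap (−0.091), Sat1 (0.34) and Ppt1 (0.17) were not called, and that of Sri had the opposite sign. Among the lower T-only genes was the integrin chain Itgb2 (2.25 to 0.991), but within the CD3 gates Itgb2 stood at 1.01 and 0.993.

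The genes named in the study's title and genotypes were weakly expressed or level in Hom blood. Cx3cr1 in monocytes stood at 0.426 and 0.277 per 10000 in Hom, against 3.18 and 2.20 in Het. Ccr2 in monocytes stood at 12.6 and 15.7 in Hom and 12.2 and 17.7 in Het, and within the Ly6C-high gate at 17.4 and 17.2. Cxcl10 was under the minimum in all 4 clusters; in monocytes it had 76 corrected counts in the naive and 15 in the metastasis-bearing sample, 89.5% and 73.3% of them in 5 cells.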

How the data were processed

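Each blood table was deposited by the authors as natural log values; the exponential minus 1 gave whole numbers within 1.18e-11, whose sum equalled the deposited corrected count of every cell. Deposited raw UMI, hashtag and antibody counts came from the authors' metadata, whose other columns (sample names, cluster numbers, gates) were used as deposited. Reads were processed with Cell Ranger 3.1 and mm10, per the submitters' processing notes; the depth correction is not given in the sources used here. Corrected counts were summed per sample and cluster and compared as log2 ratios with a pseudocount of 1 (numpy 2.4.6, scipy 1.17.1, pandas 2.3.3), a step tested on simulated data. Intervals are Clopper-Pearson. Named genes were the 8 highest and 8 lowest ratios per cluster among genes with at least 300 summed corrected counts, shifts shared by the 4 clusters, the largest cell-type-only shifts, the most abundant or called list members, Cx3cr1, Ccr2 and Cxcl10; ribosomal, mitochondrial, immunoglobulin, T cell receptor and haemoglobin genes were left out of rankings. Members, lists and tests were chosen with earlier results of these data known. The brain samples were not used here. A small number of gene results are not reported here.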

Additional observations from a re-analysis of the deposited data

Results flagged for a closer look

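Several Hom differences had the opposite sign in Het; each genotype has 1 sample a state, and none of these differences between genotypes was tested. The neutrophil share was 22.5 percentage points higher in the metastasis-bearing than in the naive sample in Hom, and −7.76 points in Het. The B cell share differed by −24.3 points in Hom and 2.22 points in Het.

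In neutrophils the log2 ratio of Steap4 was 1.87 in Hom and −2.37 in Het, and that of Hif1a, the oxygen-sensing transcription factor, was 0.72 and −0.71. In monocytes the class II genes H2-Ab1 (−1.13 and 0.68) and H2-Eb1 (−0.99 and 0.61) differed in sign, as did S100a9 (0.68 and −0.63) and Retnla (3.17 and −5.87), the last found in under 5% of Hom cells. With all deposited cells monocyte S100a9 had −0.33 in Hom, the same sign as in Het. The haemoglobin genes Hbb-bs (−3.77 and 4.86) and Hba-a1 (−3.33 and 5.79) did so in monocytes as well. In the T cluster S100a8 had 0.66 and −1.57, and S100a9 had 0.65 and −0.97; without high-UMI cells S100a9 had −0.083 in Hom, the same sign as in Het.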

How the results depend on the processing

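No paired analysis was possible because each group held 1 sample. Leaving out high-UMI cells, the antibody gates and the joined natural killer cluster were chosen after seeing the data. With all deposited cells 180 neutrophil genes were higher, 202 B cell genes higher and 81 lower, 20 were B-only and 1 was lower in all 4 clusters; the naive B cell share was 34.6%, the naive monocyte share 11.2% and the metastasis-bearing neutrophil share 37.6%. At 2-fold, higher and lower genes numbered 74 and 51 in neutrophils, 24 and 14 in B cells, 68 and 87 in monocytes and 15 and 59 in T cells, with 0 and 1 shared. With at least 300 summed counts they were 90 and 89, 19 and 32, 90 and 70, and 12 and 36, with 1 and 2 shared and 6, 2, 4 and 4 cell-type-only genes in that order. With a pseudocount of 10, 164 neutrophil, 173 B cell, 116 monocyte and 170 T cell genes were higher, 34 B cell and 73 T cell genes lower, and 4 B-only. With cells thinned to 1000 counts the pairs were 92 and 92, 21 and 65, 89 and 55, and 14 and 35, with 1 and 1 shared and 3, 1, 4 and 8 cell-type-only genes. Without cells above the 95th percentile of UMIs 1 and 1 were shared. Lower genes numbered 200 in the Ly6C-high gate, 22 in the CD3 gates and 68 with the natural killer cluster. Stricter thresholds and minimums test fewer genes by construction; the cause of the other changes was not tested.

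Signs turned as follows. With all deposited cells, monocyte S100a8 was −0.20, S100a9 −0.33 and Retnlg −0.16, and B cell Hbb-bs was 2.99, Hba-a1 3.04 and the haemoglobin list median 2.99. Without high-UMI cells, neutrophil Hbb-bs was 0.10, Hba-a1 0.34 and the haemoglobin list 0.069, B cell Jchain 0.10 and T cell S100a9 −0.083. Thinned, B cell Isg15 was 0.0081 and Ifitm1 −0.12. By gate, Nr4a1 was 0.049 in Ly6C-high monocytes. In CD3-gated T cells Ccl5 was 0.37, Tyrobp 0.039 and the 1 class II gene measured 2.01. Rbm3 kept its direction and its call at 1.5-fold in all 4 clusters under every alternative run.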
